A study of Mus musculus with 24 samples.

Results

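The Wnt ligands, their receptors and the proteins that tune them were followed in whole mouse ears after a gain-of-function mutation of CARD14 was switched on. In keratinocytes the scaffold protein CARD14 drives NF-κB signalling, and its E138A form is linked to psoriasis. Members were chosen by gene symbol, with earlier results of these data known: every Wnt, Fzd, Dkk, Sfrp and Rspo gene followed by a digit (42 genes), and 14 further symbols, namely Lrp5, Lrp6, Lgr4, Lgr5, Lgr6, Axin1, Axin2, Tcf7, Tcf7l1, Tcf7l2, Lef1, Wif1, Notum and Ctnnb1. This gave 56 members of the 51912 genes in the table, and 47 of them had enough counts to be tested. RNA came from C57BL/6 mice in 4 groups of 6 samples: wild-type ears at day 5 and at 1 month, and CARD14E138A ears at the same times. Time was counted from the first of 3 daily intraperitoneal doses of tamoxifen, which wild-type mice received too. In the mutant, tamoxifen activates a CreERT2 recombinase that turns on a Card14LSL-E138A knock-in allele at the endogenous locus. The sources do not name the promoter behind CreERT2 or the ages of the mice. The labels number the samples within each group but do not say that they came from separate animals, so the spread that p-values rest on may be technical.

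Wnt proteins are secreted, lipid-modified signals that bind Frizzled receptors together with the co-receptors LRP5 and LRP6. In the canonical branch this stabilises β-catenin, which enters the nucleus and switches on genes together with TCF and LEF proteins, while a destruction complex built on AXIN removes β-catenin when no Wnt is bound. R-spondins, acting through LGR receptors, amplify the signal, and secreted antagonists of the DKK, SFRP, WIF and NOTUM kinds dampen it. In skin the pathway is best known for forming hair follicles and driving the growth phase of the hair cycle, and it also acts in dermis, fat, cartilage and muscle, all of which a whole ear can hold.

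Total counts per library were between 15661515 and 16998900 in wild-type ears at day 5 and between 16803680 and 18852963 in mutant ears, and between 19255028 and 23904976 and between 20608274 and 23022149 at 1 month. Card14 itself was not called at day 5 (log2 fold change 0.02 ± 0.19 (SE), adjusted p = 0.943) and was lower in mutant ears at 1 month (−1.49 ± 0.20, adjusted p = 1.58e-06). Its total does not tell the mutant allele from the normal one. In 3 of the 24 libraries, all from 1 month (wild-type replicate 2, mutant replicates 1 and 6), the deviation of a gene from its median over all libraries followed its GC content with a Spearman correlation above 0.4. In 2 more of 1 month (wild-type replicate 1 and mutant replicate 4) it was below −0.4, and leading counts are also given without the 3 and without all 5. Other libraries of 1 month lay inside these limits, some of them closely. Wild-type replicates 3, 4, 5 and 6 were at 0.303, 0.396, 0.389 and −0.0932. Mutant replicates 2, 3 and 5 were at 0.325, −0.366 and −0.37. Leaving out the 3 or the 5 thus does not remove every library that varied with GC content. Day 5 libraries lay between −0.348 and 0.21. Levels are counts per 1000000 (CPM) on library sizes scaled by TMM factors, and a member is said to have risen or fallen only at an adjusted p below 0.05 in edgeR's quasi-likelihood test, adjusted over all 17287 genes tested.

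In wild-type ears at day 5, members differed widely in level once divided by exon length. Wif1, which encodes a secreted protein that binds Wnts, stood first at 129 CPM per kb (range 122 to 136), above Ctnnb1, the gene for β-catenin, at 106 CPM per kb (range 100 to 113). Their ranges did not overlap. Dkk3 followed at 41.2 CPM per kb (36.3 to 44.5), Sfrp2 at 35.2 (28.1 to 45.5) and Fzd1 at 34.3 (31.8 to 35.5), and the ranges of Sfrp2 and of both these neighbours overlapped. Among ligands Wnt4 led at 24.6 CPM per kb (21.9 to 30.9), then Wnt7b at 14.7 (13.4 to 17.3) and Wnt10a at 10.4 (8.91 to 12.3), with no overlap between these 3. Lef1 stood near the bottom at 0.527 CPM per kb (0.334 to 0.723), with Sfrp4 and Fzd3 below it.

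**Figure D1:**
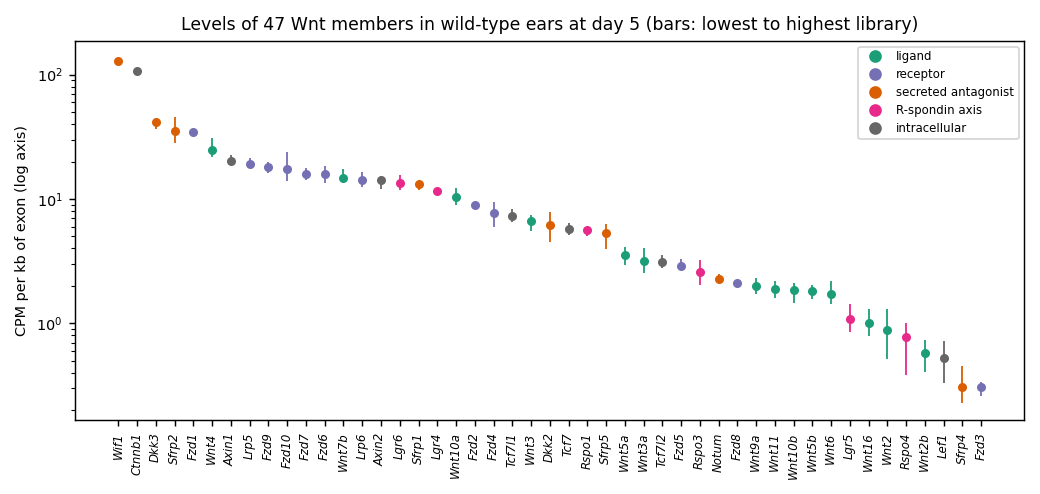
Mean level of each of the 47 tested members in the 6 wild-type libraries of day 5, in CPM per kb of exon on a log axis, with bars from the lowest to the highest library and colours for the role. Wif1 at 129 and Ctnnb1 at 106 CPM per kb stand above all other members, and Fzd3 at 0.307 is last.

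The 9 members without enough counts for a test were Dkk1, Dkk4, Rspo2, Wnt1, Wnt7a, Wnt8a, Wnt8b, Wnt9b and the antisense gene Rspo4os. Their highest value in any library lay between 0.0503 CPM (Dkk4) and 0.78 CPM (Wnt7a). Dkk1, a classical antagonist that blocks LRP co-receptors, had 11 counts in all and was at 0 in 19 of the 24 libraries.

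Promoter sequences from RefSeq (GRCm38.p6) were matched by symbol for 36 of the 56 members, as 45 windows of the 250 bases before a transcription start. A TCF/LEF motif (ATCAAAG or TTCAAAG, either strand) was present in 3 of these windows (6.67%), those of Dkk1, Wnt11 and Wnt5b, against 7.48% of 32851 mouse promoters of the same length. The NF-κB consensus (either strand) was in 4 windows (8.89%), those of Fzd5, Tcf7l2, Wnt10b and Wnt16, against 7.25% of all promoters, and a narrower form of it in 0 of 45, against 4.11%. A match describes the letters only, and its absence says only that these letters are not in the window. These windows of Wnt11 and Wnt5b are shown because they hold the motif (in capitals) and both ligands fell at day 5, and those of Wif1, Axin2 and Rspo4 because large differences described below concern these genes. Wnt11 and Wnt5b have further windows without a TCF/LEF motif, among them the window at the annotated start of Wnt5b. The Wnt11 window is chr7:98834862-98835111 (plus strand, motif 51 bases before the start). The Wnt5b window is chr6:119449387-119449636 (minus strand, motif on the opposite strand, 71 bases before a start that lies inside the gene). The other windows are chr10:121033754-121034003 for Wif1, chr11:108920099-108920348 for Axin2 and chr2:151842677-151842926 for Rspo4, all on the plus strand, with neither motif.
Wnt11: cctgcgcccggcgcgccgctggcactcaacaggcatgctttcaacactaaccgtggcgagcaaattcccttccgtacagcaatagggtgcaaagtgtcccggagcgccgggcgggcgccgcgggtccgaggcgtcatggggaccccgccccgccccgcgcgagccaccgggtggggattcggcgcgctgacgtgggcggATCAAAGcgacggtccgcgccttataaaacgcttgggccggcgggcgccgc
Wnt5b: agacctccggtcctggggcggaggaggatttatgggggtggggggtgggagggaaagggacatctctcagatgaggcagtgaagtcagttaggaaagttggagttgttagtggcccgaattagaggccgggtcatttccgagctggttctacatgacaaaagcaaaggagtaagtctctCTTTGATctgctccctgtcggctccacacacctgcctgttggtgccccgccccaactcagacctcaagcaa
Wif1: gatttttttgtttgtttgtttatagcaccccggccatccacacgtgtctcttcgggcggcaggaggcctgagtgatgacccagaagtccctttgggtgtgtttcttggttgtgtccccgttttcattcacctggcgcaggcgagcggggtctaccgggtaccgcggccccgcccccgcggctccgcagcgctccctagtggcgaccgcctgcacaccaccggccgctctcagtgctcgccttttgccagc
Axin2: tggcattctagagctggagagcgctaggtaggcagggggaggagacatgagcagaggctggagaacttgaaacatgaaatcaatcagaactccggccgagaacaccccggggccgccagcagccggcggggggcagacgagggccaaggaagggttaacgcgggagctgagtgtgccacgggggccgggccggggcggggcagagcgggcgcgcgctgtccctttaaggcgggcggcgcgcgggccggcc
Rspo4: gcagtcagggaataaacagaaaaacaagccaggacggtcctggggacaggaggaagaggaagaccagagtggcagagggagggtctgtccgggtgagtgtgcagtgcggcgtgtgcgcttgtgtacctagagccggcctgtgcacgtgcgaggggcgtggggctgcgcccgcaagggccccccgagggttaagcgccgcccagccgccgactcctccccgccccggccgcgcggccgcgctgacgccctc

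At day 5 the members were mostly lower in mutant ears: 30 of 47 fell, 1 rose (Sfrp1) and 16 passed in neither direction. Over all genes tested, 20.2% fell and 20.7% rose (40.9% in either direction). The median log2 fold change was −0.76 over the 47 members and −0.02 over all genes. In 27 members every mutant library lay below every wild-type library, which held for 16.4% of all genes. The falls spanned all roles, with 10 of 14 ligands, 6 of 12 receptors and co-receptors, 6 of 8 secreted antagonists, 5 of 6 R-spondins and LGR receptors, and 3 of 7 intracellular members. Among mutant libraries, replicates 1 and 3 stayed nearest to wild type: replicate 3 was among the 2 highest mutant libraries for 26 of the 30 members that fell, and replicate 1 for 21. These libraries also stood apart in markers of other cells: 6 neutrophil markers summed to 1935 and 2253 CPM in replicates 1 and 3, against 5296 to 8733 in the other 4 mutant libraries, macrophage markers to 284 and 426, against 686 to 912, and hair bulge markers to 781 and 677, against 360 to 428. Without both, 32 members fell and 1 rose at day 5. The part of these cells in the members' values was not tested. In bulk RNA, fewer cells of a type and less RNA per cell cannot be told apart.

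At 1 month the members split. Of 47, 17 fell and 11 rose, against 21.5% and 25.5% of all genes (47.1% in either direction), with a median log2 fold change of −0.13 against 0.05 over all genes. No overlap between the groups was seen for 11 members that were lower (9.05% of all genes) and 3 that were higher (12.2%). Of the 30 members lower at day 5, 15 were lower again at 1 month (31.9% of members against 13.3% of all genes), 8 were not called (17% against 5.97%), and 7 were higher (14.9% against 0.908%). The last group was made up of Lef1, Lgr5, Rspo4, Sfrp2, Sfrp4, Wnt11 and Wnt5a. Of these, Lef1, Rspo4 and Wnt5a kept both calls in every alternative fit. The rise at 1 month was lost in 14 of 24 alternative fits for Sfrp2, 11 for Sfrp4, 11 for Wnt11 and 1 for Lgr5. The fall at day 5 was lost in 8 of 25 for Lgr5 and 6 for Sfrp4. The share of all genes was not counted under the alternatives. Sfrp1 was higher at both times (2.13% against 16.5%), 3 members rose only at 1 month (6.38% against 8.14%) and 2 fell only then (4.26% against 8.07%). A test of the difference between the times was called for 15 members (8.77% of all genes): the genotype effect was higher at 1 month for 12 and lower for 3, against 4.68% and 4.09% of all genes. Limma's voom called 30 members in this test. Without the 3 libraries that followed GC content, 34 fell and 1 rose at day 5, 18 fell and 9 rose at 1 month, and 10 and 4 were called in the test of the difference. Without all 5 libraries past either limit the first 2 pairs of counts were the same, and 9 and 3 were called in the test of the difference. Without mutant replicates 1 and 3 of day 5 the test was called for 13 members, all with a higher genotype effect at 1 month. These sets of libraries were left out after seeing the data.

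**Figure D2:**
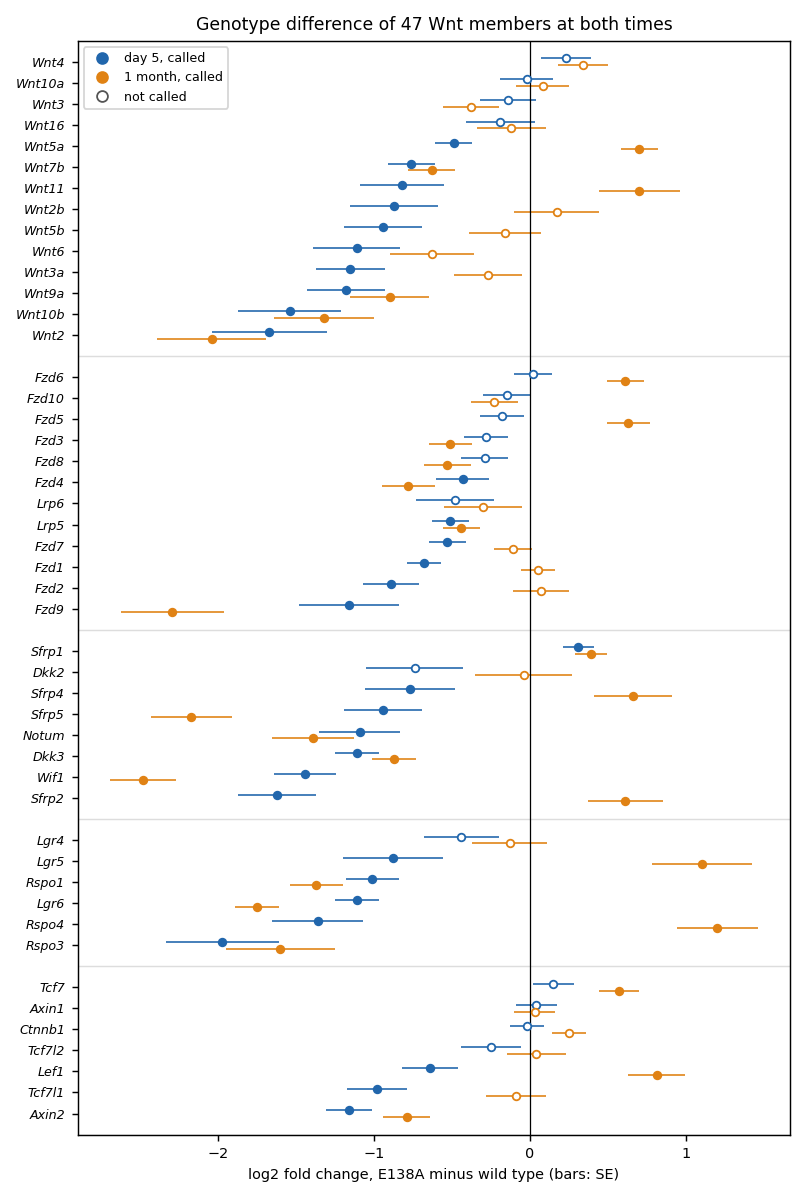
Log2 fold change between mutant and wild-type ears for the 47 tested members at day 5 (blue) and 1 month (orange), with SE; filled points passed the test and blocks from top to bottom hold ligands, receptors, secreted antagonists, R-spondins with LGR receptors, and intracellular members. Most blue points lie left of 0, while orange points lie on both sides, from −2.48 (Wif1) to 1.20 (Rspo4).

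Among the ligands, Wnt3a, Wnt2, Wnt10b, Wnt9a, Wnt6, Wnt5b, Wnt2b, Wnt11, Wnt7b and Wnt5a fell at day 5. Wnt3a, a canonical ligand, was between 7 and 11.2 CPM (median 8.37) in wild-type ears and between 2.86 and 5.4 (median 3.82) in mutant ears at day 5. No mutant library reached the lowest wild-type value, and the log2 fold change was −1.15 ± 0.22 (adjusted p = 0.000253). At 1 month Wnt3a spanned 5.47 to 10.3 CPM (median 8.76) in wild type and 3.93 to 11.1 (median 6.74) in mutants, largely overlapping, at −0.27 ± 0.22 (adjusted p = 0.341). Wnt2 was at a low level throughout. It lay between 1.16 and 2.96 CPM (median 1.88) in wild-type ears at day 5 and between 0.232 and 1.07 (median 0.501) in mutants, and between 1.55 and 5.66 (median 2.82) and between 0.369 and 1.36 (median 0.757) at 1 month. The groups did not overlap at either time, and Wnt2 fell by 1.67 ± 0.37 on the log2 scale at day 5 (adjusted p = 0.000879) and by 2.04 ± 0.35 at 1 month (adjusted p = 4.13e-05). Wnt10b, a canonical ligand of the growing hair follicle, showed −1.54 ± 0.33 and −1.32 ± 0.32 at the respective times, Wnt9a −1.18 ± 0.25 and −0.90 ± 0.25, and Wnt7b, an epidermal ligand, −0.76 ± 0.15 and −0.63 ± 0.15. Each passed the test at both times.

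Wnt5a, the main ligand of the non-canonical branch, went from lower to higher. At day 5 it was between 22.9 and 31.9 CPM (median 27.5) in wild-type ears and between 17.9 and 20.8 (median 20) in mutants. At 1 month it was between 16.1 and 27.5 (median 19) in wild type and between 26.3 and 40 (median 32.6) in mutants. The mutant libraries thus lay below every wild-type library at day 5, and at 1 month above them save for 1 overlap between the lowest mutant and the highest wild-type library. The log2 fold changes were −0.49 ± 0.12 (adjusted p = 0.00267) and 0.70 ± 0.12 (adjusted p = 5.32e-05), and their difference was 1.20 ± 0.18 (adjusted p = 8.98e-05). In wild-type ears Wnt5a fell by 0.44 ± 0.12 on the log2 scale between the times (adjusted p = 0.0259), a call lost in 12 of 24 alternatives (adjusted p from 9.21e-05 to 0.085).

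Wnt11, another ligand used mainly in non-canonical signalling, spanned 6.59 to 9.06 CPM (median 8.01) in wild-type ears and 2.72 to 7.16 (median 3.47) in mutants at day 5. The ranges at 1 month were 5.75 to 10.4 (median 6.93) and 5.68 to 19.7 (median 10.5). Mutant and wild-type libraries overlapped at both times, and Wnt11 fell by 0.82 ± 0.27 on the log2 scale at day 5 (adjusted p = 0.0175) and rose by 0.70 ± 0.26 at 1 month (adjusted p = 0.0301). The difference between the times was 1.52 ± 0.38 (adjusted p = 0.0112), a call lost without the 5 libraries past either GC limit (1.24, adjusted p = 0.0597, range over 36 alternatives 0.000248 to 0.0597). The call at 1 month was not stable: it was lost in 11 of 24 alternatives (adjusted p from 0.00692 to 0.301), among them each fit without wild-type replicate 1, 3 or 6 or mutant replicate 2 or 6, and the log2 fold change was 0.46 without mutant replicate 6.

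Wnt2b, Wnt5b and Wnt6 fell at day 5 (log2 fold changes −0.87 ± 0.28, −0.94 ± 0.25 and −1.11 ± 0.28) and were not called at 1 month (0.17 ± 0.27, −0.16 ± 0.23 and −0.63 ± 0.27), and the difference between the times was not called for any of them (adjusted p = 0.112, 0.176 and 0.583). The day 5 call of Wnt2b was lost without mutant replicates 1 and 3 (−0.81, adjusted p = 0.0552, range over 25 alternatives 0.00118 to 0.0552). Wnt5b shares its locus with Fbxl14 on the opposite strand, at a mean of 33.2 CPM against 5.33 CPM for Wnt5b. The sources do not say whether counting used strand, so reads of the 2 genes may not be told apart and the Wnt5b values are uncertain. The remaining ligands, Wnt3, Wnt4, Wnt10a and Wnt16, did not pass the test at either time. For Wnt4, the most abundant ligand per length, the 95% interval of the log2 fold change was −0.09 to 0.54 at day 5 and 0.03 to 0.65 at 1 month.

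Of the Frizzled receptors, which bind Wnts at the cell surface, Fzd1, Fzd2, Fzd4, Fzd7 and Fzd9 fell at day 5. Fzd1 lay between 133 and 149 CPM (median 146) in wild-type ears and between 76.7 and 116 (median 83.3) in mutants, with no overlap, and fell by 0.68 ± 0.11 on the log2 scale (adjusted p = 1.99e-05). At 1 month the groups ran together, from 111 to 154 CPM (median 120) and from 110 to 155 (median 128), at 0.05 ± 0.11. The difference between the times was 0.73 ± 0.15 (adjusted p = 0.00244). Fzd2 followed the same course: 30.3 to 34.9 CPM (median 33.3) against 13.9 to 21.4 (median 18) at day 5, then 22.7 to 45.5 (median 25.6) against 21.5 to 45.3 (median 28.9). Its groups were apart at day 5 (−0.89 ± 0.18, adjusted p = 0.000316) and overlapped at 1 month (0.07 ± 0.18), with a difference of 0.96 ± 0.25 (adjusted p = 0.016). Without the 3 libraries that followed GC content this difference was 0.71 and without the 5 past either limit 0.66, no longer called in both cases (adjusted p = 0.0574 and 0.0875, range over 36 alternatives 4.43e-05 to 0.0875).

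Fzd9 was the receptor with the largest falls. It spanned 36.9 to 45.5 CPM (median 41.2) in wild-type ears and 10.7 to 26.2 (median 17.4) in mutants at day 5, and 22.4 to 141 (median 71.4) and 5.57 to 19.4 (median 18.3) at 1 month. No mutant library overlapped wild type at either time, although wild-type libraries at 1 month were widely spread. The log2 fold changes were −1.16 ± 0.32 (adjusted p = 0.00492) and −2.29 ± 0.33 (adjusted p = 3.77e-06), and their difference, −1.13 ± 0.44, was not called (adjusted p = 0.127). Fzd4, a receptor known for its part in vessel growth, fell at 1 month (−0.78 ± 0.17) and, with a call that was lost in 9 of 25 alternatives, at day 5 (−0.43 ± 0.17, adjusted p = 0.0426, range 0.000189 to 0.103). Those 9 included each fit without wild-type replicate 1, 2, 3, 4 or 6 or mutant replicate 2, 5 or 6. Fzd7 fell at day 5 (−0.53 ± 0.12) and was not called at 1 month, and the difference from 1 month was not called (adjusted p = 0.131).

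Fzd5 and Fzd6 rose at 1 month. Fzd5 lay between 19 and 23 CPM (median 19.7) in wild-type ears and between 16 and 18.6 (median 18) in mutants at day 5, and between 14.2 and 23.1 (median 17.4) and between 17.4 and 38.1 (median 27.9) at 1 month. The groups overlapped at 1 month, where the log2 fold change was 0.63 ± 0.14 (adjusted p = 0.000573), and the difference from day 5 was 0.81 ± 0.20 (adjusted p = 0.00959). Fzd6, which serves planar polarity and hair patterning, rose by 0.61 ± 0.12 at 1 month with no overlap. Its difference between the times, 0.59 ± 0.17 (adjusted p = 0.0296), was lost in 10 of 36 alternatives (adjusted p from 0.000202 to 0.091), among them the fits without wild-type replicate 1, 4 or 6 or mutant replicate 2, 3 or 4 of day 5, and without mutant replicate 3 or 4 of 1 month. Fzd3 and Fzd8 fell at 1 month (−0.51 ± 0.14 and −0.53 ± 0.15), with differences from day 5 that were not called. The call of Fzd3 was lost without the 5 libraries past either GC limit (−0.44, adjusted p = 0.0559, range over 24 alternatives 0.000455 to 0.0559). Of the co-receptors, Lrp5 fell at both times (−0.51 ± 0.12 and −0.44 ± 0.12). Lrp6 passed at neither. At day 5 all mutant libraries lay below wild type, yet the 95% interval of the log2 fold change was −0.98 to 0.01. At 1 month mutant libraries spread from 46.7 to 172 CPM. Replicates 1, 2 and 6 had 60.6, 86.8 and 46.7 CPM at GC correlations of 0.48, 0.325 and 0.566. Replicates 3, 4 and 5 had 172, 170 and 167 CPM at −0.366, −0.451 and −0.37. In wild type, replicate 2 (0.61) was lowest at 81.7 CPM and replicate 5 (0.389) highest at 186. The part of GC content in the Lrp6 spread was not tested. Fzd10 was not called at either time.

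Among secreted antagonists, Wif1 was the most abundant and showed the largest fall at 1 month. It lay between 296 and 329 CPM (median 316) in wild-type ears and between 71.2 and 182 (median 94.9) in mutants at day 5, and between 299 and 681 (median 462) and between 71 and 114 (median 83.4) at 1 month. Mutant and wild-type libraries were far apart at both times, and mutant replicates 1 and 3 of day 5, at 161 and 182 CPM, stood above the other 4. Wif1 fell by 1.44 ± 0.20 on the log2 scale at day 5 (2.71-fold lower, adjusted p = 5.3e-06) and by 2.48 ± 0.21 at 1 month (5.56-fold lower, adjusted p = 3.29e-09). The genotype effect was larger at 1 month, by −1.04 ± 0.28 (adjusted p = 0.021), and this call was lost with a replicate block (−1.01, adjusted p = 0.0532) and without mutant replicates 1 and 3 of day 5 (−0.64, adjusted p = 0.0821, range over 36 alternatives 0.00453 to 0.0821). In wild-type ears Wif1 rose by 0.63 ± 0.20 between the times (adjusted p = 0.0458), a call lost in 11 of 24 alternatives (adjusted p from 0.00142 to 0.136).

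Sfrp5 had a like course at a lower level. It spanned 7.58 to 11.9 CPM (median 10.5) in wild-type ears and 3.99 to 6.24 (median 5.48) in mutants at day 5, and 8.02 to 36 (median 18.7) and 2.95 to 6.82 (median 4.02) at 1 month. The groups stayed apart at both times. The log2 fold changes were −0.94 ± 0.25 (adjusted p = 0.00477) and −2.17 ± 0.26 (adjusted p = 3.39e-07), with a difference of −1.24 ± 0.36 (adjusted p = 0.03). That difference was lost in 8 of 36 alternatives (adjusted p from 0.000167 to 0.0854), namely with a replicate block, without mutant replicates 1 and 3 of day 5 together (−1.14), and without wild-type replicate 1 or 4 or mutant replicate 3 of day 5, or wild-type replicate 5 or mutant replicate 3 or 4 of 1 month. Dkk3, a divergent member of the Dickkopf family, lay between 122 and 149 CPM (median 139) in wild-type ears and between 51 and 87.3 (median 59.5) in mutants at day 5, and between 104 and 181 (median 135) and between 64.2 and 100 (median 69.6) at 1 month. Without overlap at either time, it fell by 1.11 ± 0.14 (adjusted p = 1.6e-06) and by 0.87 ± 0.14 (adjusted p = 1.75e-05).

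Notum, a secreted enzyme that strips the lipid from Wnts and is itself a Wnt target, was between 5.16 and 5.98 CPM (median 5.35) in wild-type ears and between 1.22 and 3.8 (median 2.38) in mutants at day 5. The values at 1 month were 4.81 to 9.44 (median 7.67) and 1.55 to 5.35 (median 2.5). Only at 1 month did single libraries of the groups overlap. Notum fell by 1.09 ± 0.26 on the log2 scale at day 5 (adjusted p = 0.00183) and by 1.39 ± 0.26 at 1 month (adjusted p = 0.000101). Sfrp1, which binds Wnts in the extracellular space, was the exception among the 47 and rose at both times, by 0.31 ± 0.10 and 0.39 ± 0.10. Dkk2 was not called at either time.

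Sfrp2 and Sfrp4 were lower at day 5 and higher at 1 month. Sfrp2 lay between 60.5 and 98 CPM (median 74.5) in wild-type ears and between 16.6 and 40.7 (median 22.4) in mutants at day 5, with no overlap. Later, at 1 month, it lay between 29 and 67.3 (median 38.3) and between 41.4 and 94 (median 57.9), with overlap. It fell by 1.62 ± 0.25 on the log2 scale at day 5 (adjusted p = 1.6e-05) and was 0.61 ± 0.24 higher at 1 month (adjusted p = 0.0397), and the difference was 2.23 ± 0.35 (adjusted p = 0.000152). The rise at 1 month was lost in 14 of 24 alternatives (adjusted p from 0.00685 to 0.521), including the fits without wild-type replicate 1, 2, 3, 4 or 6 or mutant replicate 1, 3 or 6, and it was 0.21 without the 3 libraries that followed GC content and 0.28 without all 5. The difference between the times was called in all 36 alternatives run. Sfrp2 also fell in wild-type ears over time, by 0.88 ± 0.24 (adjusted p = 0.0233), a call lost in 4 of 24 alternatives (adjusted p from 3.01e-05 to 0.0608).

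Sfrp4 was scarce, between 0.967 and 1.91 CPM (median 1.22) in wild-type ears and between 0.297 and 1.38 (median 0.61) in mutants at day 5, and between 1.52 and 3.36 (median 1.9) and between 2.43 and 4.2 (median 3.31) at 1 month. Groups overlapped at both times, at −0.77 ± 0.29 (adjusted p = 0.0332) and 0.66 ± 0.25 (adjusted p = 0.0355). The call at day 5 was lost in 6 of 25 alternatives (adjusted p from 0.000368 to 0.0981), among them each fit without wild-type replicate 6 or mutant replicate 1, 2, 4 or 5. At 1 month it was lost in 11 of 24 (adjusted p from 0.000742 to 0.13), among them each fit without wild-type replicate 1, 2, 3, 4 or 6 or mutant replicate 1, 3 or 5. The difference between the times, 1.43 ± 0.38 (adjusted p = 0.0191), was called in all 36 alternatives.

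**Figure D3:**
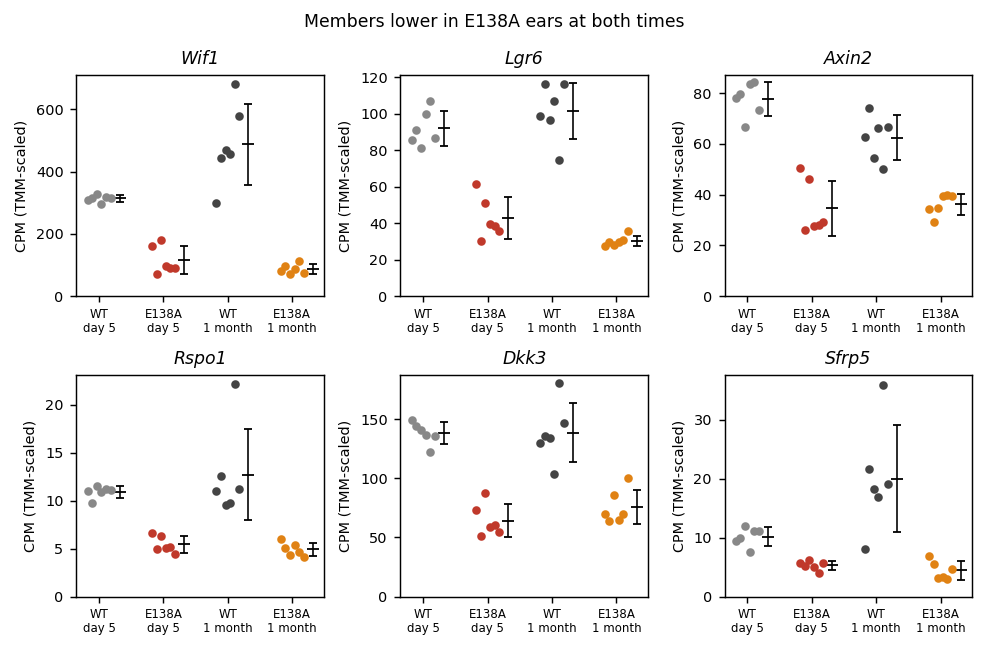
Level in CPM of 6 members that were lower in mutant ears at both times, with 1 point per library and the mean ± SD of 6 libraries in black. Mutant points lie below all wild-type points of the same time in each panel, and mutant replicates 1 and 3 of day 5 are the 2 highest for Wif1, Lgr6, Axin2, Rspo1 and Dkk3.

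The R-spondins, which raise Wnt signalling by sparing Frizzled receptors from turnover, parted into those that stayed lower and 1 that turned. Rspo3 lay between 6.31 and 10 CPM (median 7.84) in wild-type ears and between 1.26 and 3.14 (median 1.81) in mutants at day 5, and between 3.9 and 11.5 (median 6.11) and between 0.584 and 4.71 (median 2.04) at 1 month. Its groups were apart at day 5, where it fell 3.92-fold (log2 −1.97 ± 0.36, adjusted p = 0.000128), and overlapped at 1 month (−1.60 ± 0.35, adjusted p = 0.000595). Rspo1 was steadier: 9.74 to 11.5 CPM (median 11.1) against 4.45 to 6.65 (median 5.09) at day 5, and 9.53 to 22.2 (median 11.1) against 4.09 to 5.99 (median 4.87) at 1 month. No library of one genotype reached the other, and Rspo1 fell by 1.01 ± 0.17 (adjusted p = 6.09e-05) and by 1.37 ± 0.17 (adjusted p = 6.98e-07). Rspo4, known for its need in nail growth, was between 0.914 and 2.37 CPM (median 2) in wild-type ears and between 0.486 and 1.02 (median 0.648) in mutants at day 5, and between 1.36 and 3.14 (median 1.9) and between 2.81 and 6.81 (median 4.83) at 1 month. Its groups touched at both times but with opposite order, at −1.36 ± 0.29 (adjusted p = 0.000638) and 1.20 ± 0.26 (adjusted p = 0.000496). The difference, 2.56 ± 0.39 on the log2 scale (adjusted p = 0.000134), was the largest of the 47 members. In mutant ears Rspo4 rose 6.75-fold between the times (adjusted p = 2.01e-07).

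The R-spondin receptors Lgr5 and Lgr6, both markers of follicle stem cells, moved apart. Lgr6 lay between 81.4 and 107 CPM (median 89.1) in wild-type ears and between 30.4 and 61.4 (median 38.9) in mutants at day 5, and between 74.7 and 116 (median 103) and between 27.6 and 35.5 (median 29.6) at 1 month. All mutant libraries were below all wild-type libraries at both times, and mutant libraries at 1 month lay close together. Lgr6 fell by 1.11 ± 0.14 (adjusted p = 1.4e-06) and by 1.75 ± 0.14 (adjusted p = 2.09e-09). The difference between the times, −0.64 ± 0.20 (adjusted p = 0.0421), was lost in 22 of 36 alternatives (adjusted p from 0.00634 to 0.195), including the fit without mutant replicates 1 and 3 of day 5 (−0.40) and 18 of the 24 fits that each left out 1 library. Lgr5 spanned 8.75 to 14.7 CPM (median 10.6) in wild-type ears and 4.15 to 7.67 (median 5.88) in mutants at day 5, and 4.12 to 19.7 (median 6.95) and 7.6 to 29 (median 18.1) at 1 month. The groups were apart at day 5 and overlapped at 1 month, when wild-type replicate 1 alone reached 19.7 CPM and mutant replicate 1 was lowest at 7.6. Lgr5 was lower by 0.88 ± 0.32 at day 5 (adjusted p = 0.0321) and higher by 1.10 ± 0.32 at 1 month (adjusted p = 0.0063), with a difference of 1.98 ± 0.45 (adjusted p = 0.0066). The call at day 5 was lost in 8 of 25 alternatives (adjusted p from 0.0002 to 0.0739), among them a replicate block and the fits without wild-type replicate 2 or 4 or mutant replicate 2, 4, 5 or 6. At 1 month it was lost when only the libraries compared were fitted (adjusted p = 0.0533, range 5.08e-07 to 0.0533), and limma's voom with quality weights gave a value of 2.03. Lgr4 was not called at either time.

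**Figure D4:**
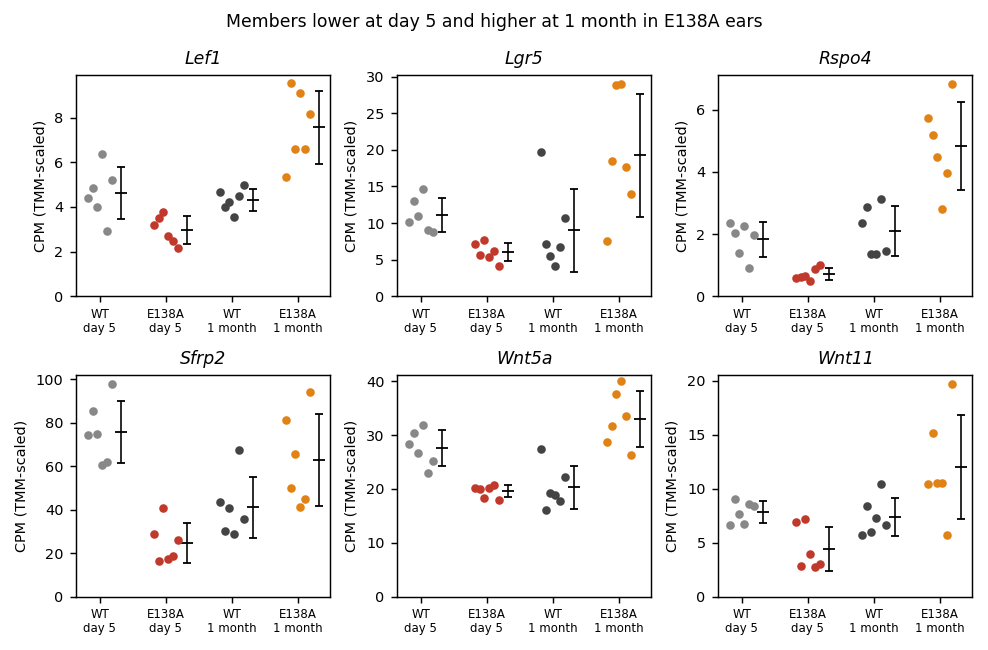
Level in CPM of 6 members that were lower at day 5 and higher at 1 month in mutant ears, with 1 point per library and the mean ± SD of 6 libraries in black. At day 5 mutant points lie below all wild-type points for Lgr5, Sfrp2 and Wnt5a, and overlap them for Lef1, Rspo4 and Wnt11. At 1 month they lie mostly above wild type, without overlap only for Lef1. Mutant libraries of Rspo4 go from 0.486 to 1.02 CPM up to 2.81 to 6.81 CPM.

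Inside the cell, the level of Ctnnb1 did not pass the test at either time. It was between 521 and 585 CPM (median 550) in wild-type ears and between 535 and 555 (median 541) in mutants at day 5, and between 384 and 553 (median 468) and between 405 and 663 (median 573) at 1 month. The day 5 ranges lay inside one another, and the 95% interval of the log2 fold change was −0.24 to 0.20. At 1 month it was 0.03 to 0.47 around a value of 0.25, and 7 of 24 alternatives called Ctnnb1 higher. Among them was limma's voom with quality weights (0.54, adjusted p = 5.4e-06). The fits without the libraries above the GC limit (0.32) and without those past either limit (0.34) also called it. So did the fit with GC correlation as a covariate, at a smaller value (0.17, adjusted p = 0.045). The other calls came when wild-type replicate 1, wild-type replicate 6 or mutant replicate 1 of 1 month was left out alone. Since β-catenin is controlled mainly by protein turnover, its transcript does not measure the activity of the pathway. Axin1, the constitutive scaffold of the destruction complex, was not called either (95% intervals −0.21 to 0.30 and −0.22 to 0.29).

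Axin2, the feedback scaffold that canonical signalling switches on in many tissues, fell at both times. It lay between 66.6 and 84.3 CPM (median 78.8) in wild-type ears and between 26.2 and 50.7 (median 28.5) in mutants at day 5, and between 50 and 74.2 (median 64.6) and between 29.2 and 39.9 (median 37) at 1 month. Genotypes did not overlap, and the log2 fold changes were −1.16 ± 0.15 (adjusted p = 1.96e-06) and −0.79 ± 0.15 (adjusted p = 0.000129). The difference between the times was not called (adjusted p = 0.345). Lef1, the nuclear partner of β-catenin that marks the growing hair follicle, took the other course. It was between 2.94 and 6.35 CPM (median 4.63) in wild-type ears and between 2.17 and 3.78 (median 2.95) in mutants at day 5, and between 3.54 and 4.96 (median 4.36) and between 5.36 and 9.56 (median 7.39) at 1 month. Groups overlapped at day 5 (−0.64 ± 0.18, adjusted p = 0.00728), and at 1 month every mutant library was above every wild-type library (0.81 ± 0.18, adjusted p = 0.000569). Their difference was 1.45 ± 0.26 (adjusted p = 0.000577).

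Tcf7l1, a TCF family member that mostly represses targets, lay between 25.5 and 32.6 CPM (median 27.5) in wild-type ears and between 11 and 19.2 (median 13.6) in mutants at day 5. Later, at 1 month, it lay between 20.7 and 42.9 (median 21.5) and between 17.7 and 37.8 (median 22.9). The groups were apart at day 5 (−0.98 ± 0.19, adjusted p = 0.00027) and overlapped at 1 month (−0.09 ± 0.19). The difference, 0.89 ± 0.27 (adjusted p = 0.0404), was lost in 22 of 36 alternatives (adjusted p from 0.000221 to 0.157), including 17 of the 24 fits that each left out 1 library. Tcf7, which is prominent in T cells, rose at 1 month (0.57 ± 0.13, and 0.36 without the 3 libraries that followed GC content), and the difference from day 5 was not called (adjusted p = 0.185). The summed level of 7 T cell markers was between 36.8 and 48.7 CPM in wild-type ears at 1 month and between 21.4 and 48.2 in mutants. Gene by gene, 2 of the 7 rose and 2 fell at 1 month (28.6% each against 25.5% and 21.5% of all genes), with a median log2 fold change of 0.20. The part of T cells in the values of Tcf7 was not tested. Tcf7l2 was not called at either time.

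Between the times, 5 members were called in wild-type ears and 19 in mutants, while voom called 27 and 31. In wild type 2 rose (Sfrp5 and Wif1) and 3 fell (Sfrp2, Wnt5a and Wnt16), against 6.28% and 2.81% of all genes (9.09% in either direction), and DESeq2 called 10 in place of 5 and the fit without the 5 libraries past either GC limit 11. The count of 5 rested on single libraries: it was 9 without wild-type replicate 1 of 1 month, 2 without replicate 1 or 2 of day 5 or replicate 4 of 1 month, and 3 without replicate 4 or 6 of day 5 or replicate 2, 3 or 5 of 1 month. No member rose without overlap there and 1 fell so, against 2.9% and 2.16% of all genes. In mutant ears 17 rose and 2 fell (Lgr6, a call lost in 4 of 25 alternatives, and Wnt16), against 11.2% and 8.23% (19.4% in either direction). For 8 of the 17 every library of 1 month lay above every library of day 5, which held for 5.05% of all genes, and 0 members were lower without overlap, against 3.56%. All 7 members with opposite calls at the 2 times were among the 17, with the rises of Rspo4 (2.76 ± 0.29), Sfrp4 (2.12 ± 0.28) and Lgr5 (1.68 ± 0.33) the largest on the log2 scale.

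Other genes of the pathway were counted over a list of 57, of which 55 were tested. At day 5, 21 of them fell and 5 rose, with a median log2 fold change of −0.22 (38.2% and 9.09% of the list, against 20.2% and 20.7% of all genes). At 1 month 13 fell and 12 rose (median −0.01), or 23.6% and 21.8% against 21.5% and 25.5% of all genes, shares near the background. The difference between the times was called for 11, all with a higher genotype effect at 1 month. This was 20% of the list against 4.68% of all genes, and a lower effect was called for 0% against 4.09%. The 4 with the smallest adjusted p at day 5 were Rnf43, a ligase that removes Frizzled receptors (−0.86 ± 0.11), Ctbp2, a co-repressor (0.88 ± 0.11), Apcdd1, a membrane inhibitor of Wnt (−1.08 ± 0.14), and Nkd1, a feedback inhibitor (−1.54 ± 0.20). Apcdd1 had a mean of 67.3 ± 5.19 CPM (SD, n = 6) in wild-type ears and 31.8 ± 5.72 in mutants at day 5, and 69.4 ± 9.82 and 69.1 ± 17.1 at 1 month. At 1 month the 4 were Ctbp2 again (1.10), Frzb, a secreted antagonist, Vangl1, a planar polarity protein (0.82), and Draxin, a secreted antagonist (2.34). Frzb was at 102 ± 35.5 CPM (SD, n = 6) in wild-type ears and 25.5 ± 7.49 in mutants at 1 month.

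Of 16 genes known as direct targets of β-catenin and TCF, 15 were tested. Axin2, Lef1, Lgr5, Notum and Dkk1 of this list are members, and Nkd1, Nkd2, Rnf43, Znrf3 and Apcdd1 are on the list of other pathway genes. Most of the falls at day 5 were therefore counted above already, and the shares of this list are not separate from those. At day 5, 10 fell and 2 rose (median −0.67), or 66.7% and 13.3% of the list against 20.2% and 20.7% of all genes. At 1 month 5 fell and 5 rose (median −0.09), or 33.3% each against 21.5% and 25.5%. The 2 that rose at day 5 were Myc (1.20 ± 0.10) and Cd44 (1.58 ± 0.20), a growth regulator and a cell adhesion receptor that many other signals also control. Inhibitors of the pathway on this list differed: Axin2, Rnf43, Notum and Nkd2 fell at both times, Nkd1 and Apcdd1 fell at day 5 and were not called at 1 month (−0.34 and −0.00), and Znrf3 was called at neither (−0.34 and −0.37). Their grouping was made after the values were seen. Also on the list, Lef1 and Lgr5 went from lower to higher.

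Markers of hair follicle cells, which use the pathway, differed in how many were called. Of 12 markers of hair matrix and shaft, 11 were in the table, and their summed level lay between 67.1 and 99.1 CPM in wild-type ears and between 41.3 and 64 in mutants at day 5, and between 91.2 and 277 and between 410 and 2437 at 1 month. At 1 month 9 of the 11 rose (81.8% against 25.5% of all genes), among them the inner root sheath keratins Krt25 (3.79 ± 0.61) and Krt28 (3.59 ± 0.39). At day 5, Dlx3 and Msx2 fell (18.2% against 20.2% of all genes, a share near the background) and 9 were not called. Wild-type replicate 1, with the highest Lgr5 of its group, also had the highest hair matrix sum (277 CPM), while in mutants replicate 2 had the highest sum (2437 CPM) and Lgr5 of 18.5 CPM. Wild-type replicate 1 had a GC correlation of −0.44. The other wild-type libraries of 1 month had −0.0932 to 0.61, with Lgr5 of 4.12 to 10.7 CPM. Mutant replicates 3, 4 and 5 of 1 month had Lgr5 of 28.8, 29 and 17.7 CPM at GC correlations of −0.366, −0.451 and −0.37. Mutant replicates 1, 2 and 6 had 7.6, 18.5 and 14 CPM at 0.48, 0.325 and 0.566. The part of GC content in these Lgr5 levels was not tested. The 7 hair bulge markers, a list that includes Lgr5, summed to a median of 1860 CPM in wild type and 422 in mutants at day 5, and to 2403 and 579 at 1 month, never overlapping. Most of this sum is Krt15, a keratin of bulge and basal cells, with means of 1509 and 263 CPM at day 5 and 1962 and 208 at 1 month. Gene by gene, 6 of the 7 fell at day 5 (85.7% against 20.2% of all genes, median −0.88). At 1 month Krt15 fell, Lgr5 rose and 5 were not called (14.3% in each direction against 21.5% lower and 25.5% higher, median −0.18). The part of these follicle cells in the fall of Lgr6, Wif1 and Axin2 and in the rise of Lef1, Lgr5 and Rspo4 was not tested.

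Dermal and deeper tissues shifted too. The 8 fibroblast markers summed to a median of 17122 CPM in wild-type ears and 7157 in mutants at day 5, and to 9927 and 16653 at 1 month, with overlap at 1 month. Gene by gene, 4 fell and 1 rose at day 5 (50% and 12.5% against 20.2% and 20.7% of all genes). At 1 month 5 rose and 2 fell (62.5% and 25% against 25.5% and 21.5%). Sfrp2 and Wnt5a had the genotype order of this sum at each time. Median sums of melanocyte markers (75.5 and 18.5, then 32 and 50.3 CPM), hair matrix markers and suprabasal keratinocyte markers had it too. The 9 dermal papilla markers, from cells that instruct the follicle, had medians of 146 and 147 CPM and then 161 and 136, with overlapping ranges at both times. Gene by gene, 4 of the 9 fell and 1 rose at day 5 (44.4% and 11.1% against 20.2% and 20.7% of all genes, median −0.73). At 1 month 4 rose and 2 fell (44.4% and 22.2% against 25.5% and 21.5%, median 0.67). The direction at 1 month was opposite to that of the sum, in which Vcan and Corin weigh most. Sums for skeletal muscle (8 markers), cartilage (8) and adipocytes (6) were lower in mutants without overlap at both times: medians were 4408 and 2212 CPM, 919 and 324, and 524 and 282 at day 5, and 10223 and 2172, 1378 and 353, and 812 and 327 at 1 month. Neutrophil markers (6 genes) went from 10.4 to 5501 CPM at day 5 and from 26.4 to 4487 at 1 month, between wild-type and mutant medians. No defining marker was at 0 in any group except Matn1, a cartilage gene, in wild-type ears at day 5. The part of these shifts in the values of the members was not tested.

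**Figure D5:**
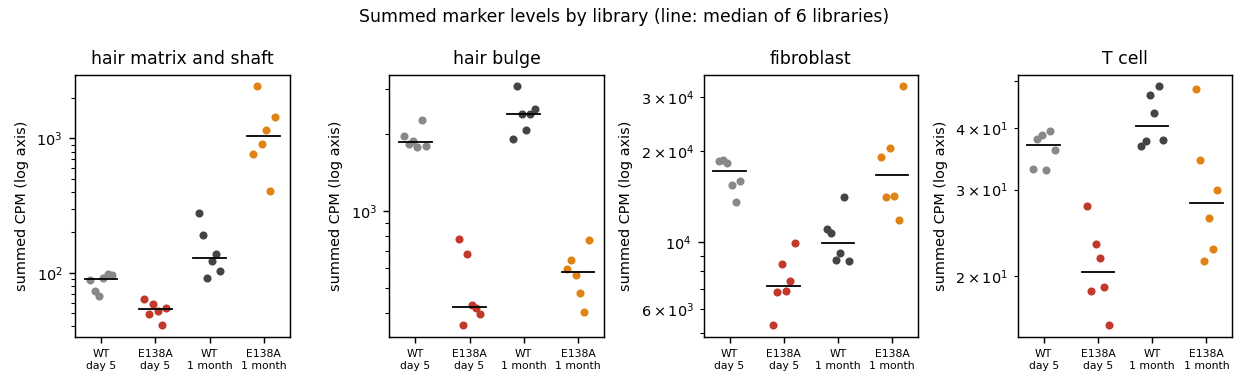
Summed level of markers of 4 cell types in each library, in CPM on a log axis, with a line at the median of 6 libraries. The hair matrix sum in mutant ears is below wild type at day 5 (53.7 against 90.4 CPM) and above it at 1 month (1035 against 130 CPM), while the hair bulge sum, most of it Krt15, is lower in mutants at both times (5 of its 7 genes were not called at 1 month).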

How the data were processed

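PolyA-selected RNA of whole ears was read single-end on a HiSeq4000, per the labels' protocols. The authors deposited expected counts per gene, unscaled. The submitters' processing notes list STAR 2.5.2, RSEM 1.3.0, DESeq2 1.14.1 and GRCm38; annotation release and use of strand are not given in the sources used here. Counts were rounded (6.71% had decimals). Genes passing filterByExpr by group were scaled by TMM and fitted with edgeR 4.0.16 (R 4.3.3), 1 coefficient per group over all 24 libraries. Tests were robust quasi-likelihood F tests, two-sided, with Benjamini-Hochberg adjustment over 17287 genes and calls at 0.05. An SE is the log2 fold change divided by the square root of F, and 95% intervals rest on it. Exon lengths came from GENCODE M21 (GRCm38). No 2 libraries of a group agreed within counting noise, so none was taken as a repeat. Described one by one were members called in a genotype comparison or in the difference between the times, with a mean of at least 1 CPM in a group. Values per group were given for the 10 smallest adjusted p of each comparison and for Axin2, Lef1 and Ctnnb1, and the 4 smallest of further lists were named. The day 5 comparison alone was tried on simulated counts, with far fewer genes changed than were called in these data. The other comparisons were not simulated. Alternatives were DESeq2 1.42.0, voom of limma 3.58.1, other scaling, filters or libraries, and a replicate block. Members and lists were chosen with earlier results of these data known.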

Additional observations from a re-analysis of the deposited data

Results flagged for a closer look

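The genotype effect differed between the times, by the test of the difference itself, for 15 members (effect at 1 month minus effect at day 5, log2). It was higher at 1 month for Rspo4 (2.56), Sfrp2 (2.23), Lgr5 (1.98), Wnt11 (1.52), Lef1 (1.45), Sfrp4 (1.43), Wnt5a (1.20), Fzd2 (0.96), Tcf7l1 (0.89), Fzd5 (0.81), Fzd1 (0.73) and Fzd6 (0.59). It was lower at 1 month for Sfrp5 (−1.24), Wif1 (−1.04) and Lgr6 (−0.64).

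In 9 of 148 groups of 6 libraries examined, 1 library stood far from the rest by Dixon's criterion, which chance alone meets in about 1 in 20 groups. Wild-type replicate 5 of 1 month was such a library for Rspo1 (22.2 CPM, next 12.6), Tcf7l1 (42.9 CPM, next 27.9) and Sfrp4 (3.36 CPM, next 2.14). At day 5 in wild type these were replicate 4 for Fzd5 (23 CPM, next 20.5), replicate 2 for Rspo1 (9.74 CPM, next 10.9) and replicate 6 for Sfrp4 (1.91 CPM, next 1.28). In mutants they were replicate 6 of day 5 for Fzd5 (16 CPM, next 17.8), replicate 1 of day 5 for Sfrp1 (58.3 CPM, next 70.7) and replicate 6 of 1 month for Fzd8 (13.5 CPM, next 8.64).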

How the results depend on the processing

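Direction and side of the threshold were kept under all alternatives run by 28 of 32 values at day 5, 22 of 29 at 1 month, 8 of 15 in the difference between the times, 12 of 18 in mutant ears over time and 0 of 4 in wild-type ears over time. None of these values changed sign, and other values, such as those near 0 that were not called, were given no alternatives. Voom with quality weights moved values at 1 month by over 1.5 times for Fzd4 (−0.48), Rspo3 (−0.98), Tcf7 (0.35) and Wnt11 (0.37) towards 0, and for Lgr5 (2.03), Lrp5 (−0.72) and Wnt7b (−0.98) away from it. The number of members called moved by more than 1.5 times in these cases: voom gave 30 for the difference between the times, 27 for wild-type ears over time and 31 for mutant ears over time, against 15, 5 and 19, and wild-type ears over time gave 10 with DESeq2, 9 with only the libraries compared, 3 with a replicate block, and, in alternatives chosen after seeing the data, 8 with GC correlation as a covariate and 11 without the 5 libraries past either GC limit; the cause was not tested. Leaving out 1 library at a time gave 28 to 32 called members at day 5, 25 to 29 at 1 month, 11 to 15 for the difference, 2 to 9 in wild-type ears over time and 16 to 20 in mutant ears over time. In wild-type ears over time 40% of called members were higher, against 57.1% with RLE factors, 60% with total counts, 70% with DESeq2 and 63.6% without those 5 libraries. Deviations of same-numbered samples correlated at −0.207 to 0.0882 at day 5, −0.8 to 0.305 at 1 month, −0.0981 to 0.095 in wild-type ears over time and −0.123 to 0.468 in mutant ears over time, where 3 of 6 were above 0.1. Since not every pair was above 0.1 in any comparison, the numbers were not taken as pairs, and of the 6 numbers 1, 1, 0 and 2, in that order, had samples that correlated best with their own number. At 1 month replicate 1 (−0.8) joined a wild-type and a mutant library with GC correlations of −0.44 and 0.48. Replicate 2 (0.305) joined libraries at 0.61 and 0.325, and replicate 3 (−0.0038) joined libraries at 0.303 and −0.366. The part of GC content in the correlations of same-numbered samples was not tested. A replicate block gave 30 called members at day 5, 27 at 1 month, 11 for the difference (11 higher, 0 lower) and 18 in mutant ears over time. The 9 members at 0.78 CPM or less in every library could not be tested at this depth.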
